A study of Mus musculus with 2 samples.

Results

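The p53 target genes described here are 10 genes, Cdkn1a, Mdm2, Trp53inp1, Ccng1, Bax, Bbc3, Sesn1, Zmat3, Phlda3 and Gdf15, chosen by name as known arrest, feedback and apoptosis targets of p53. All 10 were found among the 23183 gene symbols of the deposited files, where they hold 14 of the 33299 transcript rows. The rows of a symbol were summed as normalized FPKM (fragments scaled by transcript length and library size). RNA was sequenced from mouse cavernous endothelial cells (MCECs), a primary culture grown out of penile tissue of male C57BL/6J mice of 8 weeks and used at passages 2 to 4, as 1 library of cells in high glucose with HBS (HG+HBS) and 1 library of cells in high glucose with PC-NVs (HG+PC-NVs). High glucose (HG) was 30 mM, which both cultures received, HBS is the buffer that serves as vehicle, and PC-NVs are nanovesicles obtained when cultured pericytes of the mouse cavernosum are pressed through membrane pores, given at 1 µg/mL. By the methods the cells had 72 hours of glucose and 24 hours of PC-NVs when RNA was taken, while the sample labels give 5 days of glucose. A normal-glucose library was not analysed here.

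p53, encoded by Trp53 in the mouse, is a transcription factor that is kept low by Mdm2-driven degradation and accumulates after DNA damage and other stress. It then binds response elements made of a repeated 10-base motif and switches on genes for cell cycle arrest, for DNA repair and for apoptosis, as well as genes that feed back on p53 itself. In endothelial cells, p53 is known for its part in senescence and apoptosis under metabolic stress. The libraries measure RNA, so neither the p53 protein nor its phosphorylation is covered by the values below.

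With 1 library per condition, the spread between cultures is unknown, so no difference was tested and no p-value is given. Intervals cover counting error only. Where a pair of values is given for a gene or list, the HG+HBS library comes first. They rest on about 13400000 fragments with HBS and 11700000 with PC-NVs, read from the value that 1 fragment takes in low rows. As a check of the labelled cell type, 10 of 16 endothelial markers were under 1 FPKM in both libraries, such as Vwf at 0.158 and 0.128 FPKM. Pecam1 stood at 1.05 and 0.938 FPKM. The 16 summed to 65.7 and 51.0 FPKM, the lowest sum of the cell type lists read here. Of the 5 tested (those whose log2 values average 1 or more), Cdh5 alone was higher, at 5.05 and 5.73 FPKM. The other 4 were lower within 1.5-fold, namely Eng at 29.0 and 21.4 FPKM, Esam at 17.4 and 11.7 FPKM, Egfl7 and Flt1. The 9 fibroblast markers summed to 3487 FPKM with HBS and 3417 FPKM with PC-NVs, but 8 of them were lower, such as Fn1 at 1344 and 964 FPKM, and Dcn alone was higher, at 623 and 1283 FPKM. The 9 myeloid markers summed to 352 and 594 FPKM, with 3 higher past 1.5-fold (Cd14 at 36.6 and 252 FPKM, Adgre1 at 7.44 and 42.5 FPKM, and Fcer1g at 18.8 and 41.1 FPKM) and 3 lower by less (Csf1r, Cd68 and Lyz2). The 12 pericyte and smooth muscle markers summed to 147 and 109 FPKM, with 4 of the 9 tested lower past 1.5-fold (Acta2, Tagln, Anpep and Cspg4) and 2 higher (Rgs5 and Kcnj8). Over all genes tested, 5.33% were higher and 3.57% lower past 1.5-fold. None of the defining markers of these lists was listed at exactly 0, but this does not show that each was expressed. Sox17 stood at 3.53e-05 FPKM in HG+HBS, about 0 fragments, and Myh11 rested on about 1 fragment in each library. The part of these cell types in the values of the p53 targets was not tested, so the values cannot be assigned to endothelial cells alone. In such bulk RNA, fewer cells of a type and less RNA per cell cannot be told apart.

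Taken as a list, the 10 genes did not move to one side. Of the 10, 5 were higher and 5 lower in HG+PC-NVs, where 51.6% of the 11785 genes tested (those whose log2 values average 1 or more) were lower. The median log2 ratio of the list was -0.02, beside -0.01 over all genes tested, with every ratio taken as log2 of (FPKM + 1) in HG+PC-NVs over that in HG+HBS. Past a fold change of 1.5, Sesn1 and Bbc3 were lower (2 of 10, where 3.57% of all genes tested were) and Gdf15 was higher (1 of 10, where 5.33% were). Without regard to sign, the median log2 ratio was 0.29 for the list and 0.16 over all genes tested. None of the 10 passed the thresholds of the study, a fold change above 4 and log2 values over 6 in each library, which 0.588% of the 1191 genes at that level passed. Only Cdkn1a, Mdm2, Ccng1, Bax and Phlda3 were at that level, so the others, with Sesn1, Bbc3 and Gdf15 among them, could not pass. Summed, the list went from 1067 to 1052 FPKM, or from 0.205% to 0.181% of all FPKM of the library. The total of all FPKM was larger in HG+PC-NVs, at 580717 against 521666 in HG+HBS, so the share fell by more than the sum.

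**Figure D1:**
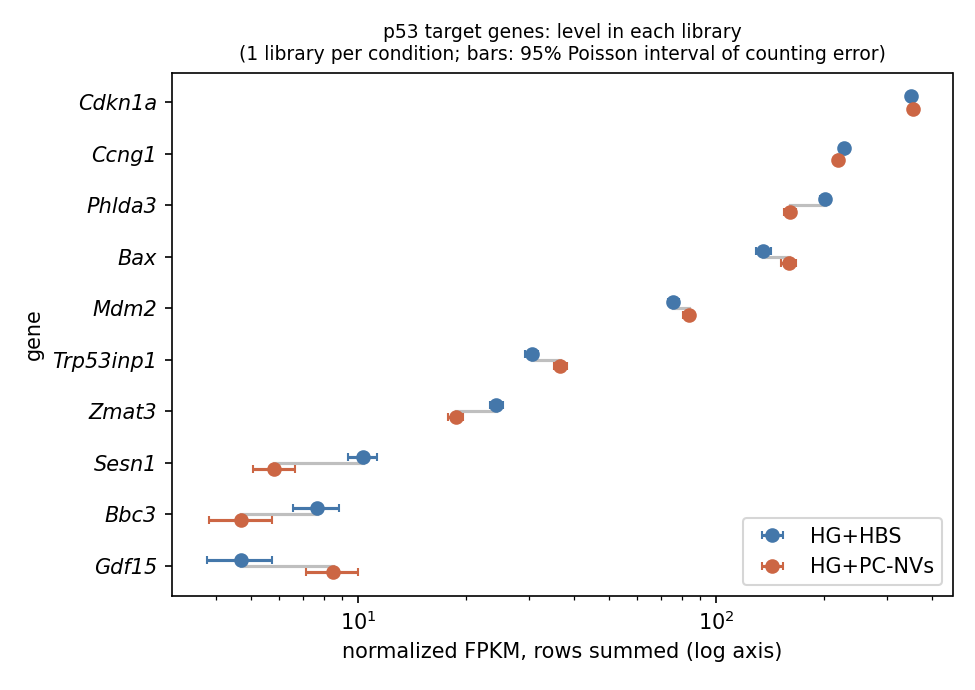
Level of each p53 target gene in HG+HBS (blue) and HG+PC-NVs (orange), as normalized FPKM with the rows of a symbol summed, on a log axis. Bars are 95% Poisson intervals of counting error, with 1 library per condition. Cdkn1a stands highest in both libraries, at 349 and 355 FPKM, and Sesn1, Bbc3 and Gdf15 lie farthest apart between the libraries.

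The short sequences below show the p53 motif near the starts of the 2 members whose start windows hold a complete site, and they are printed because p53 acts on its targets through this motif. RefSeq start windows of GRCm38.p6, each from 250 bases before to 50 bases after a start, were at hand for 8 of the 10 genes (13 windows), but not for Trp53inp1 and Zmat3. Capitals mark a p53 site of 2 adjacent decamers, with at most 1 mismatch to the p53 decamer consensus, which reads the same on both strands. The Cdkn1a site begins 51 bases before the upstream start of the gene (chr17:29090908-29090967, forward strand), and the Ccng1 site begins 195 bases before its start (chr11:40755442-40755501, reverse strand).
Cdkn1a: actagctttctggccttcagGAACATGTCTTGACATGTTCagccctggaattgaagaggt
Ccng1: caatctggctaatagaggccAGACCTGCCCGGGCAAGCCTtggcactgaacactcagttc
Such a site, with up to 13 bases allowed between the decamers, was found in 2 of the 13 member windows and in 0.627% of all 32851 windows. At least 1 decamer with no mismatch was found in 5 of the 13, one window each of Cdkn1a, Ccng1, Bax, Mdm2 and Sesn1, and in 8.36% of all windows. The windows are a description of sequence and not of binding. Of these 5 genes, Sesn1 was lower past 1.5-fold and the other four differed by less.

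Among the arrest genes, Cdkn1a encodes p21, the inhibitor of cyclin-dependent kinases that carries much of the arrest by p53. It lies on chromosome 17 of GRCm38 from 29090976 to 29100727 on the forward strand. Its level was 349 FPKM in HG+HBS, against 355 FPKM in HG+PC-NVs, from about 6614 and 5862 fragments, which placed it at rank 200 and 225 of all genes. The libraries were thus nearly level for this gene, with a log2 ratio of 0.02 and a ratio of FPKM of 1.01 (95% Wilson interval for counting error 0.979 to 1.05). The sign of this small ratio depended on the scaling, at -0.12 after quantile normalization between the libraries. With values as deposited, this was the smallest difference of the 10 genes, in a gene that holds one of the printed p53 sites.

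Sesn1 encodes sestrin 1, a stress protein that restrains mTORC1 signalling, and lies on chromosome 10 from 41809935 to 41908424. Its level was 10.3 FPKM with HBS and 5.82 FPKM with PC-NVs, the lowest log2 ratio of the list at -0.73. The ratio of FPKM was 0.565 (counting interval 0.480 to 0.664, from about 441 and 217 fragments), and 2.04% of the genes tested had a lower log2 ratio. The lower level came from 1 of its 2 transcript rows. That row stood at 6.32 FPKM in HG+HBS, against 2.01 FPKM in HG+PC-NVs, a log2 difference of -1.28. The other row stood at 3.98 and 3.81 FPKM, a log2 difference of -0.05. The share of the first row in the gene went from 61.4% to 34.6%. The files do not name the transcript of a row, and the 2 RefSeq-linked transcripts of Sesn1, of 2600 and 3809 nt, begin at different starts. Over the 14 rows of the members, 2 were lower past 1.5-fold, where 5.7% of all rows tested were, and 1 was higher, where 7.48% were. Where each gene was taken from its row of highest mean log2 value over both libraries, Sesn1 was read from its second row, at -0.05 and within 1.5-fold. That choice of row depends on the difference itself, since the first row is the higher one in HG+HBS and the second in HG+PC-NVs.

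Gdf15 encodes a secreted stress cytokine of the TGF-beta superfamily that acts through GFRAL in the hindbrain. The gene lies on chromosome 8 from 70629393 to 70632456. It was the lowest of the 10 in HG+HBS, at 4.69 FPKM, and stood at 8.48 FPKM in HG+PC-NVs. This was the only member higher past 1.5-fold, with a log2 ratio of 0.74 and a ratio of FPKM of 1.81 (counting interval 1.39 to 2.35). It rests on about 92 and 145 fragments, the fewest of the list in HG+HBS. Of the genes tested, 96.3% had a lower log2 ratio.

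Of the feedback genes, Mdm2 encodes the ubiquitin ligase that targets p53 for degradation (chromosome 10, 117688875 to 117710758). Its level was 75.9 FPKM with HBS and 83.9 FPKM with PC-NVs, a log2 ratio of 0.14. The counting interval of the ratio of FPKM, 1.05 to 1.16, lay above 1. Its 2 rows went opposite ways, the larger from 65.3 to 76.8 FPKM and the smaller from 10.6 to 7.11 FPKM, with log2 differences of 0.23 and -0.51, both within 1.5-fold. The smaller row made up 13.9% of the gene with HBS and 8.47% with PC-NVs.

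Ccng1 encodes cyclin G1, which recruits a phosphatase that activates Mdm2 (chromosome 11, 40748552 to 40755311). Its level was 227 FPKM in HG+HBS, against 219 FPKM in HG+PC-NVs, the second highest of the list in both libraries. The log2 ratio was -0.05, the ratio of FPKM 0.963 (counting interval 0.937 to 0.991, from about 10661 and 8971 fragments). Like Cdkn1a, the gene with the other printed site, it was thus nearly level between the libraries, and quantile normalization moved its log2 ratio to -0.21.

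Trp53inp1 encodes a stress-induced nuclear protein that promotes p53 phosphorylation and autophagy (chromosome 4, 11156431 to 11174379). Its level was 30.5 FPKM with HBS and 36.6 FPKM with PC-NVs, a log2 ratio of 0.26 with a counting interval of 1.13 to 1.27 for the ratio of FPKM. Both of its rows were higher in HG+PC-NVs, the first from 18.0 to 23.2 FPKM and the second from 12.5 to 13.4 FPKM.

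Zmat3 and Phlda3 were lower in HG+PC-NVs, both within 1.5-fold. Zmat3 encodes a zinc finger protein that binds RNA and acts in splicing (chromosome 3, 32334792 to 32366014). Its level was 24.3 FPKM in HG+HBS, against 18.7 FPKM in HG+PC-NVs, with a log2 ratio of -0.36 (ratio of FPKM 0.770, counting interval 0.724 to 0.819). Phlda3 encodes a pleckstrin homology domain protein that competes with Akt for membrane lipids and so restrains Akt (chromosome 1, 135766119 to 135769136). Its level was 201 FPKM with HBS and 161 FPKM with PC-NVs, a log2 ratio of -0.33 (ratio of FPKM 0.797, counting interval 0.759 to 0.837). Of the genes tested, 9.95% had a lower log2 ratio than Zmat3 and 11.8% a lower one than Phlda3. After quantile normalization the log2 ratio of Phlda3 was -0.45. With a lower threshold, a log2 ratio of 0.32 in place of 0.58, these 2 genes joined Sesn1 and Bbc3, so that 4 of 10 were lower, where 12% of all genes tested were, and 1 of 10 was higher, where 12.4% were.

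The apoptosis genes Bax and Bbc3 differed in opposite directions. Bax encodes the pore-forming effector of the mitochondrial pathway (chromosome 7, 45461697 to 45466898, reverse strand). Its level was 135 FPKM in HG+HBS, against 159 FPKM in HG+PC-NVs, with a log2 ratio of 0.23 (ratio of FPKM 1.18, counting interval 1.10 to 1.26). Bbc3 encodes Puma, the BH3-only protein that frees Bax and Bak from their inhibitors (chromosome 7, 16308393 to 16318205, forward strand). Its level was 7.65 FPKM with HBS and 4.70 FPKM with PC-NVs, a log2 ratio of -0.60 (ratio of FPKM 0.615, counting interval 0.482 to 0.784). This ratio lies just past the threshold of 1.5-fold, a log2 ratio of 0.58, and rests on about 185 and 99 fragments. The effector was thus expressed far above the BH3-only activator in both libraries, on the FPKM scale.

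**Figure D2:**
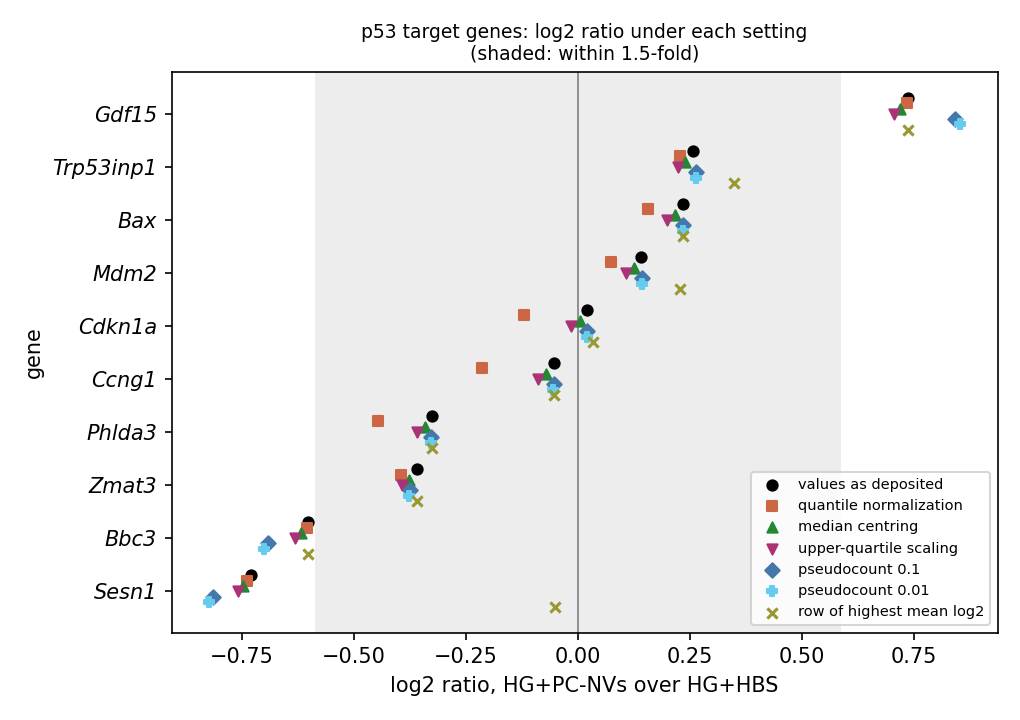
Log2 ratio of HG+PC-NVs over HG+HBS for each p53 target gene, with values as deposited (black) and under 6 other settings, and with the range within 1.5-fold shaded. Gdf15 lies to the right of the shaded range and Bbc3 and Sesn1 to its left, except for Sesn1 when read from its row of highest mean log2 value, row 2 (-0.05), and Cdkn1a lies to the left of 0 only after quantile normalization (-0.12) and upper-quartile scaling (-0.01).

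Between genes, the order of the levels was alike in the libraries for the 7 highest genes, with 1 near tie. In HG+HBS, Phlda3 stood above Bax, with intervals for counting error of 195 to 208 FPKM and 129 to 142 FPKM. In HG+PC-NVs these neighbours did not differ beyond counting error, with 154 to 167 FPKM for Phlda3 and 152 to 167 FPKM for Bax. Among the 3 lowest genes, the order was Sesn1, Bbc3 and Gdf15 in HG+HBS, and Gdf15, Sesn1 and Bbc3 in HG+PC-NVs. The counting intervals of Sesn1 and Bbc3 overlapped in HG+PC-NVs, at 5.07 to 6.64 and 3.82 to 5.72 FPKM, and that of Gdf15, at 7.16 to 9.98 FPKM, lay above both.

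**Figure D3:**
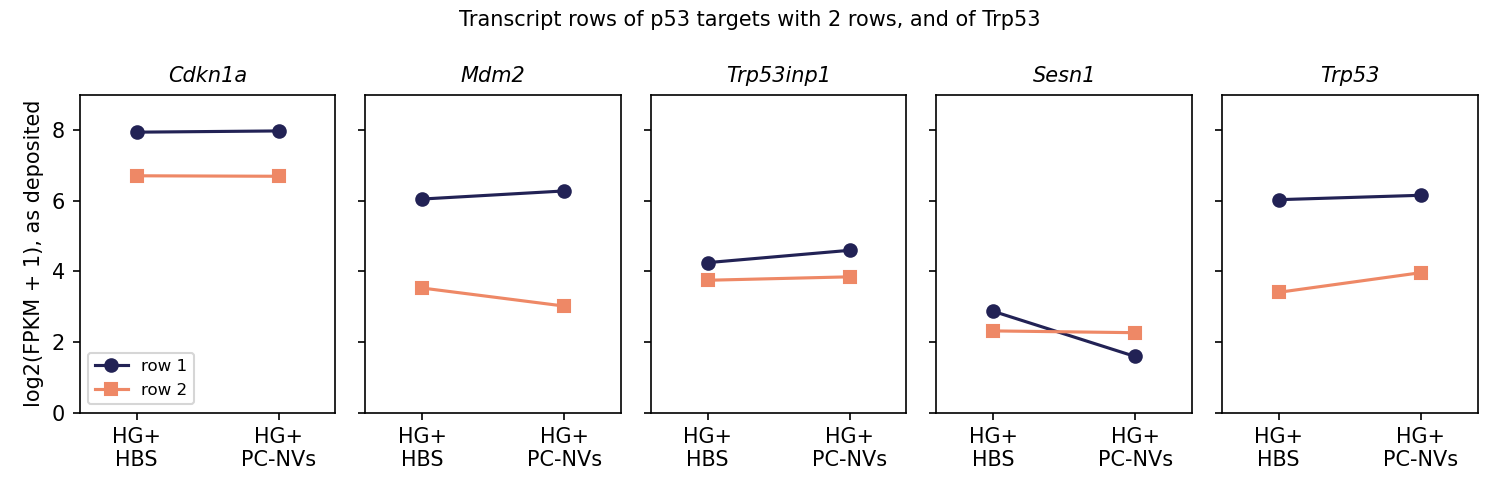
Deposited log2(FPKM + 1) values of the single transcript rows of the 4 p53 targets with 2 rows, and of Trp53, in each library, with rows numbered by their level in HG+HBS. The steepest line is row 1 of Sesn1, from 2.87 to 1.59, while row 2 of Sesn1 and both rows of Cdkn1a are nearly flat.

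Trp53 itself was not lower in HG+PC-NVs. It stood at 74.1 FPKM in HG+HBS, against 85.0 FPKM in HG+PC-NVs, with a log2 ratio of 0.20 that was within 1.5-fold and above that of 78.9% of the genes tested. Its rows went from 64.5 to 70.4 FPKM and from 9.62 to 14.6 FPKM. Mdm4, which encodes the partner of Mdm2 that masks the activation domain of p53, stood at 9.69 and 9.73 FPKM, summed over 6 rows. Of 23 genes tested among p53 and its regulators, 0 passed 1.5-fold in either direction, where 8.9% of all genes did, and the median log2 ratio was -0.01. The widest log2 ratio of that list was that of Cdkn2a, whose locus encodes p16 and the Mdm2 inhibitor Arf, at -0.47, from 215 to 155 FPKM. Trp63 and Trp73, the relatives of Trp53, were at or near 0 FPKM in both libraries.

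Other known p53 targets were read from 3 further lists of 58 genes, of which 57 were in the files and 54 were tested. Of the 54, 8 were higher past 1.5-fold (14.8%, beside 5.33% of all genes tested) and 2 were lower (3.70%, beside 3.57%). The median log2 ratio was -0.07, so that, as with the 10 genes, the middle of the list lay near 0. Among the death and death receptor targets, 4 of 17 were higher and 0 lower past 1.5-fold. By any amount, 7 of the 17 were higher and 10 lower, with a median log2 ratio of -0.08. Fas, a death receptor, stood at 8.67 and 28.0 FPKM (log2 ratio 1.58), and Dram1, a lysosomal protein of autophagy, at 6.14 and 19.6 FPKM (1.53). Pmaip1, which encodes the BH3-only protein Noxa, stood at 5.99 and 11.8 FPKM (0.87), opposite in direction to Bbc3. Tnfrsf23, a decoy receptor of TRAIL, stood at 31.6 and 53.7 FPKM (0.75).

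Of the 30 arrest and repair targets tested, 3 were higher past 1.5-fold (10%, beside 5.33% of all genes tested). The 1 that was lower made up 3.33%, near the 3.57% of all genes tested, and the median log2 ratio was -0.12. The higher genes were Dcxr, a carbonyl reductase, at 61.2 and 126 FPKM, Trp53inp2, a paralog of Trp53inp1 that acts in autophagy, at 27.0 and 50.8 FPKM, and Btg1, an antiproliferative factor, at 23.4 and 43.2 FPKM. Gadd45a, a growth arrest gene induced by DNA damage, was the lower one, at 30.5 and 17.0 FPKM (log2 ratio -0.81). Of the 7 secreted targets tested, 1 was higher and 1 lower past 1.5-fold, or 14.3% each way beside those same shares. Inhbb, a subunit of activin, was higher, at 21.6 and 34.6 FPKM. The chemokine gene Cx3cl1 was lower, at 110 and 56.8 FPKM (log2 ratio -0.95).

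**Figure D4:**
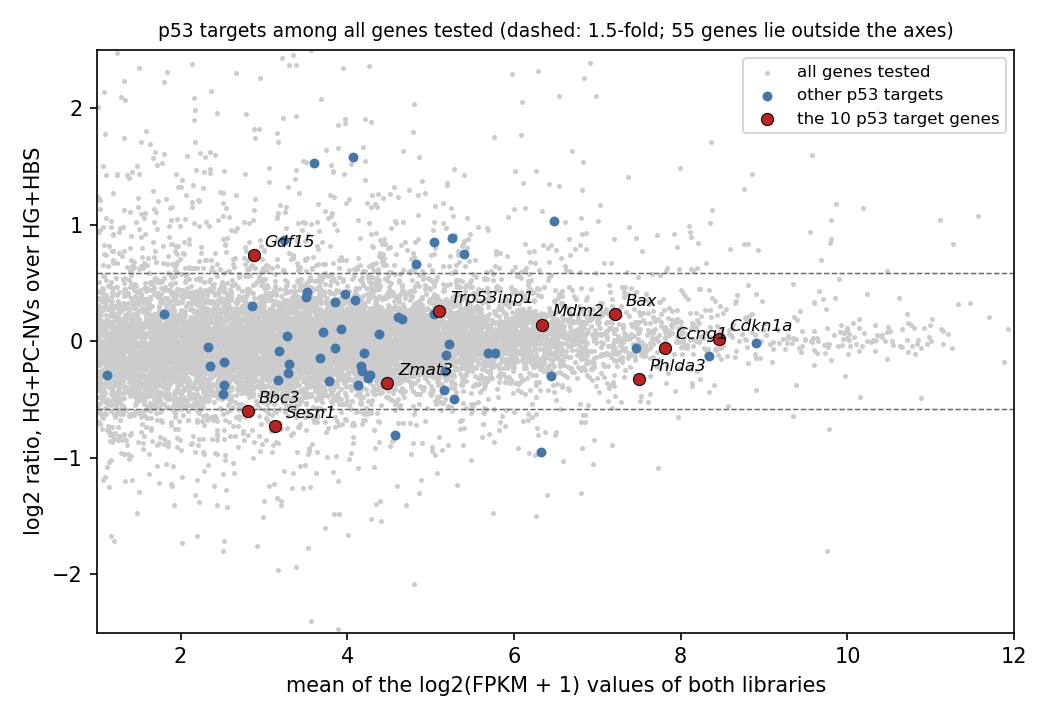
Log2 ratio of HG+PC-NVs over HG+HBS against the mean log2 level for all 11785 genes tested (grey), 54 other p53 targets (blue) and the 10 p53 target genes (red), with dashed lines at 1.5-fold and 55 genes outside the axes. Of the red points, Gdf15 lies above the upper line and Sesn1 and Bbc3 below the lower one, all 3 at low levels, while the highest genes Cdkn1a and Ccng1 lie near 0.

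Of 13 paralogs of the members tested, 1 was higher (Trp53inp2) and 1 lower (Bok) past 1.5-fold, a share of 7.69% each way, near the 5.33% and 3.57% of all genes tested. The sestrin genes Sesn1, Sesn2 and Sesn3 were lower in HG+PC-NVs, of which Sesn1 was past 1.5-fold with its rows summed. Sesn2 stood at 20.4 and 16.4 FPKM (log2 ratio -0.29) and Sesn3 at 26.2 and 18.2 FPKM (log2 ratio -0.50). Ccng2, the paralog of Ccng1, stood at 14.4 and 20.6 FPKM (0.48). Bak1, the other effector beside Bax, stood at 48.6 and 46.0 FPKM (-0.08), while Bok, a further relative, stood at 5.29 and 2.26 FPKM (-0.95). Phlda1 stood at 79.3 and 101 FPKM (0.34), opposite in direction to Phlda3, and Phlda2 was under 1 FPKM in both libraries. Zmat2 was nearly level, at 30.5 and 31.2 FPKM (0.03). Zmat5 was lower, at 19.1 and 12.5 FPKM (-0.58), just within 1.5-fold as a ratio of (FPKM + 1), while its ratio of FPKM was 0.653. Zmat1 stood at 1.56 and 0.937 FPKM (-0.40), also within 1.5-fold only as a ratio of (FPKM + 1), with a ratio of FPKM of 0.599. Zmat4 was under 1 FPKM in both libraries. Of the other inhibitors of the Cdkn1a family, Cdkn1b stood at 8.75 and 8.69 FPKM and Cdkn1c at 5.32 and 4.24 FPKM.

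**Figure D5:**
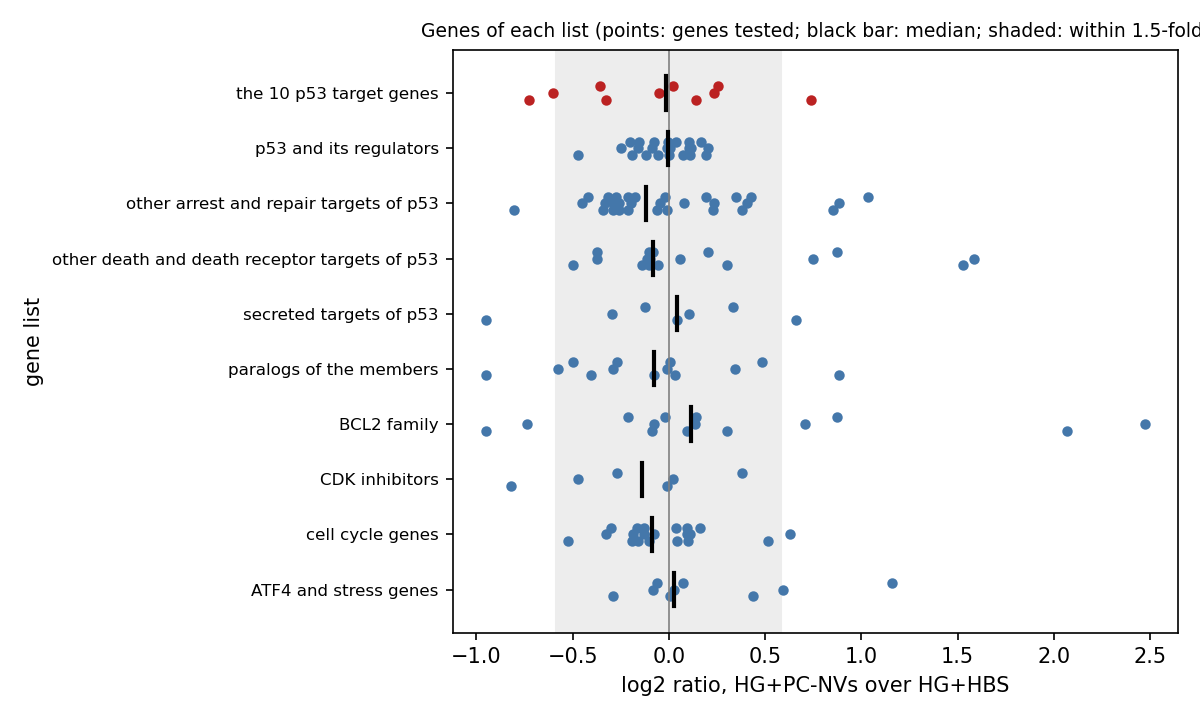
Log2 ratio of HG+PC-NVs over HG+HBS for the tested genes of each list, with black bars at the medians and the range within 1.5-fold shaded. The medians lie between -0.14 (CDK inhibitors) and 0.12 (BCL2 family), and that of the 10 p53 target genes lies at -0.02.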

How the data were processed

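Total RNA of MCECs was made into poly(A)-selected SMARTer Stranded libraries, 1 per condition, and sequenced as paired ends. After trimming, the authors used TopHat for alignment to mm10 (tool and build also per the submitters' processing notes), BEDTools for read counts, Cufflinks for FPKM and edgeR in R for normalization, which the methods call quantile normalization. Versions and the annotation are not given in the sources used here. The authors deposited log2 values, read from their range as log2(normalized FPKM + 1), for 33299 rows per library.

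Here, values were used as deposited. Each was converted to FPKM, rows of a symbol were summed, and log2 ratios were taken with a pseudocount of 1 FPKM, which understates the difference of low genes. Genes whose log2 values averaged 1 or more were compared (11785 of 23183), and a fold change of 1.5 marks size only. The worth of 1 fragment was the most frequent value of FPKM times length in kb among 2189 genes with 1 row and a single GENCODE M21 (GRCm38) transcript over 1500 nt. This worth was 0.0749 with HBS and 0.0857 with PC-NVs, with a second peak at 1.99 and 2.02 times that value. Fragments per gene used the mean length of its RefSeq-linked transcripts and are approximate, since Cufflinks divides fragments among transcripts. Genes with 3 fragments or fewer in a library were given no interval.

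The members and the gene lists were chosen with earlier results of these data known. Besides the members, genes were named that passed 1.5-fold within a list (at most 8 per list), as well as Trp53, Mdm4 and the paralogs. Other genes were chosen after their values were seen, namely the cell type markers given as examples, Cdkn2a, Trp63, Trp73 and the genes named as within 1.5-fold in the closing section. As alternatives, the fold threshold, filter, normalization, pseudocount and treatment of rows were varied. The calculations were tested on simulated data. The software was Python 3.11.15 with scipy 1.17.1, pandas 2.3.3, numpy 2.4.6 and, for plots, matplotlib 3.10.9.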

Additional observations from a re-analysis of the deposited data

How the results depend on the processing

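No paired analysis was possible because each condition has a single library, which also left no replicate to leave out. Of 60 alternative log2 ratios of the 10 genes, 54 stayed within counting error of the deposited value and 6 did not. These were Cdkn1a (-0.12), Ccng1 (-0.21) and Phlda3 (-0.45) after quantile normalization, and Mdm2 (0.23), Trp53inp1 (0.35) and Sesn1 (-0.05) with only the row of highest mean log2 value of a gene. Counting error is wide for genes of few fragments, such as Gdf15, and narrow for Ccng1, so the 54 and the 6 depend on depth. The median log2 ratio of the list was -0.17 after quantile normalization, beside -0.04 over all genes, and between -0.05 and -0.01 under the other settings. The count of members lower past the threshold was 2. It was 1 with that single row per gene, as Sesn1 was then read from row 2 (row 1, the higher one in HG+HBS, had a log2 difference of -1.28), 1 where log2 values had to average 3 or more (Bbc3 and Gdf15 left out), 4 past a log2 ratio of 0.32 and 0 past 2-fold. The count higher was 1, but 0 with that higher filter and 0 past 2-fold. The count of members lower by any amount was 5, but 6 after quantile normalization and after upper-quartile scaling, and 4 of 8 with the higher filter. The cause of these shifts was not tested beyond the fewer genes or rows that a setting keeps. Depth limits Gdf15 and Bbc3 most, with about 92 and 99 fragments in their lower library.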

Other observations

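Further gene groups that border on the p53 targets were read in the same way, beside the 5.33% of all genes tested that were higher and the 3.57% that were lower past 1.5-fold. In the BCL2 family, 4 of 14 genes tested were higher and 2 lower past 1.5-fold, with a median log2 ratio of 0.12. The higher genes were Pmaip1 and Bcl2a1a, Bcl2a1b and Bcl2a1d, which are near-identical copies of an antiapoptotic gene, so that the division of fragments among them is uncertain. Bcl2a1b stood at 5.18 FPKM with HBS and 9.07 FPKM with PC-NVs, while Bcl2a1a and Bcl2a1d, at 0.00339 and 0.232 FPKM in HG+HBS, stood at 4.57 and 4.16 FPKM in HG+PC-NVs. Bmf, a BH3-only gene, was lower, at 1.92 and 0.750 FPKM, as was Bok. The antiapoptotic genes Bcl2l1 and Mcl1 were nearly level, at 53.4 and 50.2 FPKM and at 48.0 and 52.7 FPKM.

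Against the same 5.33% higher and 3.57% lower among all genes tested, of 6 CDK inhibitor genes 1 was lower past 1.5-fold and 0 were higher, with a median log2 ratio of -0.14. The lower one was Cdkn2b, which encodes p15 and neighbours Cdkn2a, at 64.3 and 36.0 FPKM. Of 20 cell cycle genes that p21 and the DREAM complex repress, 1 was higher and 0 were lower past 1.5-fold, with a median log2 ratio of -0.09, so that the share higher, 5%, was near that of all genes. The higher one was Ccne2, which encodes cyclin E2, at 1.35 and 2.63 FPKM, and the proliferation marker Mki67 stood at 10.03 and 8.69 FPKM. Of 9 tested ATF4 and stress genes, a pathway that also drives Gdf15, 2 were higher past 1.5-fold and 0 were lower, with a median log2 ratio of 0.03. These were Ddit4, at 21.2 and 48.6 FPKM, and Trib3, at 3.31 and 5.51 FPKM, while Atf4 itself stood at 44.5 and 46.9 FPKM.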
